A study of Mus musculus with 6 samples.

Results

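Large2 and 6 genes of dystroglycan and its O-mannose glycan (Dag1, Pomt1, Pomt2, Pomgnt1, Pomk and B4gat1) were examined among the 22180 mouse genes that had an array row of their own. Large2 was chosen by its measured increase of about 3-fold in Lats1/Lats2 mutant cortex, and the other 6 for their place in the same pathway. All 7 had exactly 1 row with no other gene symbol on it, so no choice between rows was needed. All 7 also passed the filter on dim genes, a mean log2 value of 5.02, with group means above that value in control and in mutant samples.

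The samples were cortices of 6 mouse embryos at E12.5, 1 embryo and 1 Affymetrix whole-transcript array each, with no treatment. The 3 control embryos are labelled only as control, so which alleles or Cre they carried is not known here. The 3 DKO embryos carried loxP-flanked Lats1 and Lats2 alleles together with Nestin-Cre, which is driven by the Nestin promoter and acts mainly in neural progenitors and their progeny. The deposited values were log2 signals normalized by RMA, and with 3 arrays in a group the number of arrays sets the precision. Array medians lay between 5.94 and 5.97. Lats1 fell in DKO from 8.71 ± 0.33 to 7.79 ± 0.05 (SD, n = 3), by 0.91 ± 0.14 (SE) with a limma adjusted p of 0.0189. Leaving out control 1 moved that adjusted p to 0.0809, control 3 to 0.0571, DKO 1 to 0.0875 and DKO 3 to 0.0811. Lats2 was at 7.03 ± 0.17 in control and 7.27 ± 0.09 in DKO (SD, n = 3) with an adjusted p of 0.285, and whether its probes lie in the deleted part is not known here. The cortical markers Emx1, Emx2, Pax6, Lhx2, Sox2, Nes and Hes1 were all above the dim limit, with a mean level over these 7 genes of 9.32 to 9.37 in control and 9.32 to 9.40 in DKO arrays. Behind this mean Emx1, Emx2, Pax6 and Lhx2 had lower means in DKO (differences of -0.30, -0.18, -0.07 and -0.17), as did 10064 of the 16724 genes tested. Sox2, Nes and Hes1 had higher means (0.07, 0.24 and 0.37), as did 6660 of the 16724, and none of the 7 passed the test.

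Dystroglycan, the product of Dag1, is a cell surface receptor that is cut into an outer alpha and a membrane-spanning beta subunit. The alpha subunit binds laminin and related matrix proteins only when it carries matriglycan, a sugar chain of repeating xylose and glucuronic acid built on O-linked mannose. Pomt1 and Pomt2 add the first mannose, further enzymes build and phosphorylate the core glycan, B4gat1 adds the primer, and Large2 can extend it. In the embryonic cortex this receptor links radial glia to the basement membrane under the pia, and loss of its glycosylation is known for cobblestone malformations of the cortex.

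Large2 was the only one of the 7 genes whose DKO arrays all lay above all control arrays, against 8.22% of all 16724 genes tested. Its log2 values were 6.22, 6.38 and 6.14 in control 1, 2 and 3 and 8.15, 7.66 and 8.01 in DKO 1, 2 and 3. The lowest DKO array stood 1.27 log2 units (2.42-fold) above the highest control array, while the arrays of a group spanned 0.24 in control and 0.49 in DKO. The means were 6.25 ± 0.13 in control and 7.94 ± 0.25 in DKO cortex (SD, n = 3), a log2 difference of 1.70 ± 0.13 (SE), or 3.24-fold. This placed Large2 11th by size of increase among the genes tested, or 18th without control 2 and 20th without DKO 3. Since the gene was chosen for this difference, these values describe it and carry no test. The signal is that of whole cortex, in which more transcript per cell and more cells of a type that makes it cannot be told apart.

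**Figure D1:**
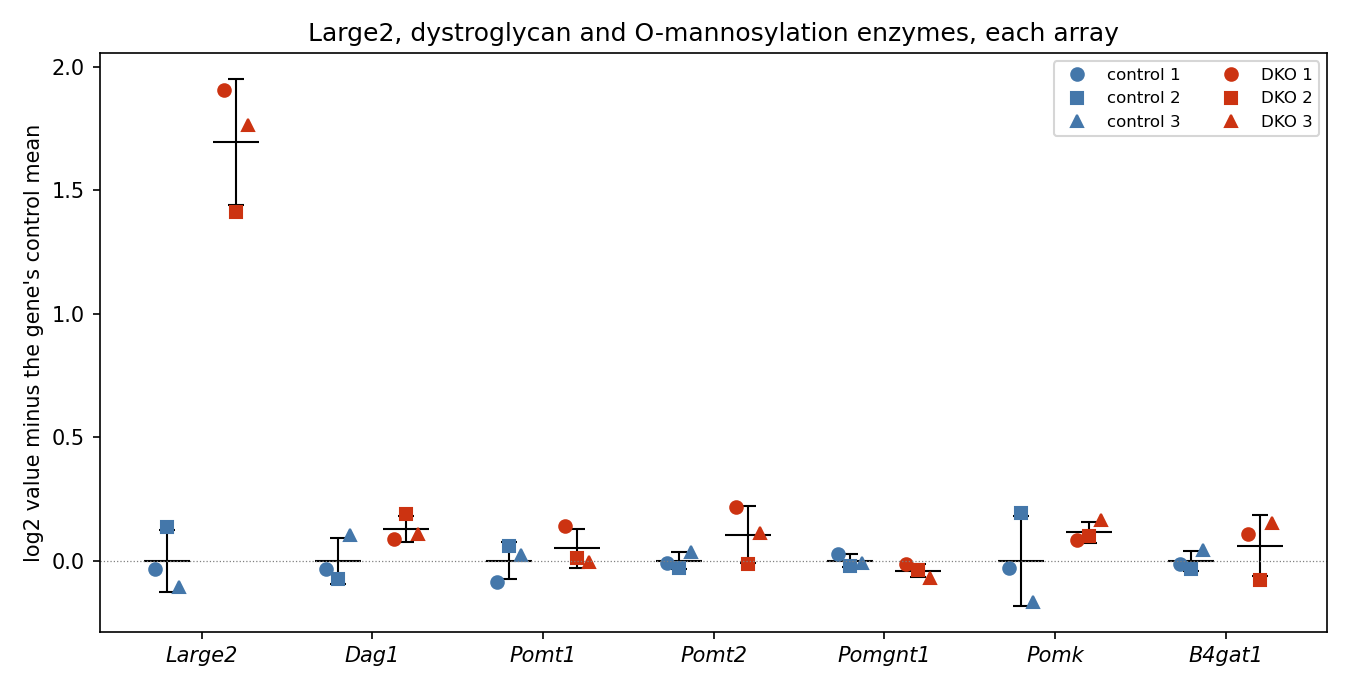
Log2 value of each array minus the control mean of the same gene (y axis) for Large2, Dag1, Pomt1, Pomt2, Pomgnt1, Pomk and B4gat1 (x axis). Blue points are the 3 control arrays and red points the 3 DKO arrays, with bars at the group mean ± SD. The Large2 DKO mean lies 1.70 above control, and those of the other 6 genes lie between -0.04 and 0.13.

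The receptor gene and the enzymes that begin and build its glycan did not pass the test. None of the 6 genes was called higher or lower by limma (adjusted p from 0.429 to 0.791), where 1.72% of all genes tested were called, and none had an unadjusted p under 0.05. In all 6 the DKO and control arrays overlapped. An exact two-sided permutation test over the arrays gave p from 0.2 to 0.6, where the smallest p that 3 against 3 allows is 0.1. The 95% intervals of the differences ran from 0.888-fold to 1.25-fold at their widest over the 6 genes, so changes of the size seen for Large2 lay outside each interval.

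Dag1, which encodes both dystroglycan subunits, had log2 values of 8.90, 8.86 and 9.04 in the control arrays and 9.03, 9.13 and 9.05 in the DKO arrays. Control 3 lay between DKO 1 and DKO 3, so the groups overlapped. The difference in level was 0.13 ± 0.07 (SE), a 9.43% higher signal with a 95% interval from -2.09% to 22.3%, and the limma adjusted p was 0.429.

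Pomt1 and Pomt2 encode the subunits of the protein O-mannosyltransferase that starts the glycan in the endoplasmic reticulum. Pomt1 had log2 values of 7.51, 7.66 and 7.62 in control and 7.74, 7.61 and 7.59 in DKO arrays, with DKO 1 highest and the others inside the control range. Its difference was 0.05 ± 0.07 (SE, adjusted p 0.785). Pomt2 had 8.60, 8.58 and 8.65 in control and 8.83, 8.60 and 8.72 in DKO arrays, so that DKO 1 and DKO 3 lay above the control range and DKO 2 within it. Its difference was 0.11 ± 0.07 (SE, adjusted p 0.547). Another row carried the symbols of Pomt2 and Gstz1 together and was left out by the selection. On that row the means were 8.51 ± 0.04 in control and 8.51 ± 0.01 in DKO (SD, n = 3).

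Pomgnt1 adds N-acetylglucosamine to the mannose and so forms the core M1 glycan. Its log2 values were 7.12, 7.07 and 7.09 in control and 7.08, 7.06 and 7.03 in DKO arrays, and it varied least of the 7 within the groups (SD 0.03 in each). It was the only one of the 7 with a lower mean in DKO, by a difference of -0.04 ± 0.06 (SE, adjusted p 0.791).

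Pomk phosphorylates the mannose of the core M3 glycan, on which matriglycan is later built. Its values were 7.56, 7.79 and 7.43 in control and 7.67, 7.69 and 7.76 in DKO arrays, so that the DKO arrays lay inside a wider control range. The difference was 0.12 ± 0.09 (SE, adjusted p 0.612), and this was the widest of the 6 intervals, from 0.936-fold to 1.25-fold.

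B4gat1 adds the glucuronic acid that primes the chain, the step just before that of Large2. Its values were 7.32, 7.30 and 7.38 in control and 7.44, 7.25 and 7.48 in DKO arrays, with DKO 2 below every control array and the other DKO arrays above them. The difference was 0.06 ± 0.08 (SE, adjusted p 0.752). DKO 2 was the lowest DKO array for Large2 and Pomt2 too, but the highest for Dag1.

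The wider pathway was described with lists of 67 other genes, of which 60 had a row and 59 were tested. Of these, 3 rose, against 1.36% of all genes tested, and 1 fell, against 0.359%. Calls in either direction made up 6.78% of the 59 and 1.72% of all genes tested. The lists were chosen with earlier results of these data known, so these shares are a description and were not tested. The median difference of the 59 was 0.01, beside -0.03 over all genes tested. The genes that passed encode ligands of dystroglycan or members of the dystrophin-associated complex, and none encodes an enzyme of the glycan.

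**Figure D2:**
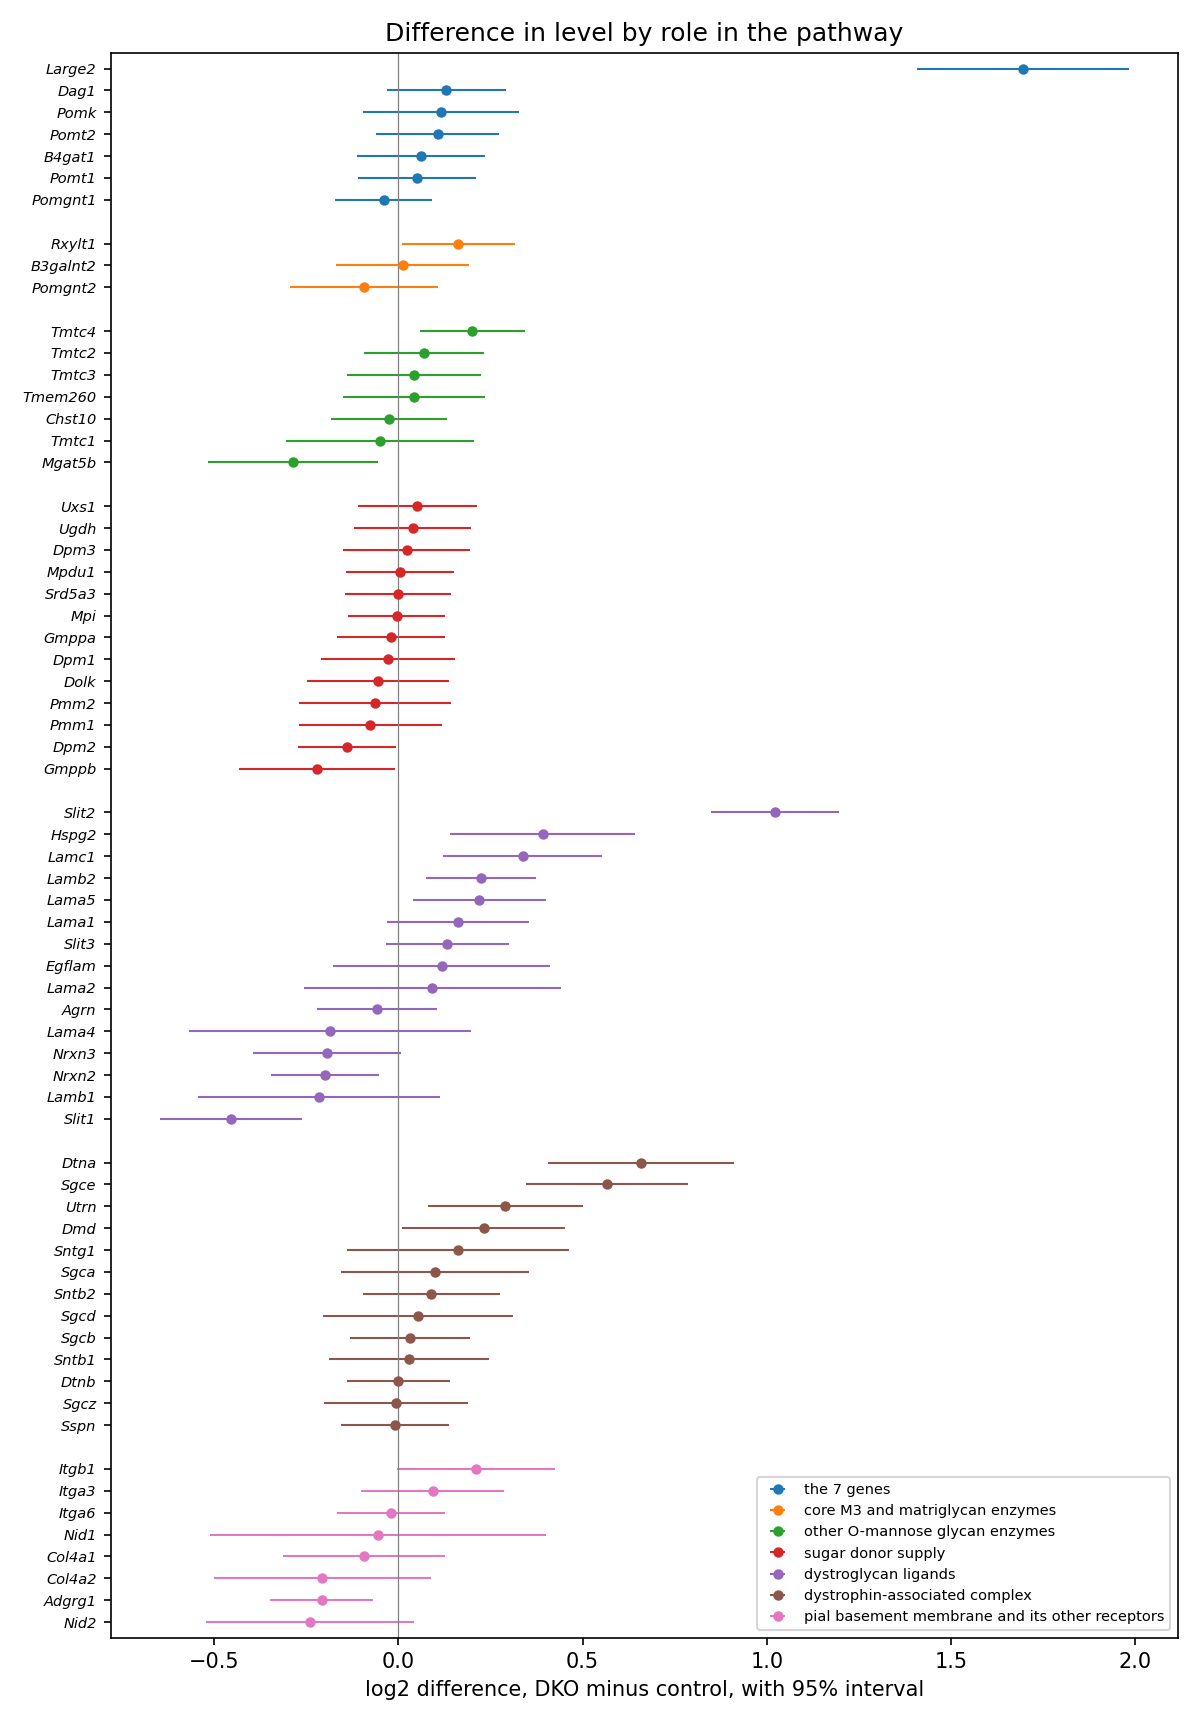
Log2 difference between DKO and control means (x axis, DKO minus control) for each of the 7 genes and the 59 tested pathway genes (y axis), coloured by role, with 95% intervals from the limma fit. Large2 at 1.70 and Slit2 at 1.02 stand to the right, Slit1 at -0.46 stands to the left, and the enzymes and donor genes other than Large2 lie between -0.29 and 0.20.

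None of the other tested enzymes of the core M3 glycan and matriglycan passed. The 3 tested were Rxylt1, Pomgnt2 and B3galnt2. The other 4 of the 7 listed had no row of their own, so most of this list was not measured. Rxylt1, the xylosyltransferase that acts just before B4gat1, had 6.70, 6.79 and 6.67 in control and 6.93, 6.80 and 6.91 in DKO arrays. Its DKO arrays all lay above control, by a narrow margin at DKO 2, as did those of 8.22% of all genes tested. The difference of Rxylt1 was 0.16 ± 0.07 (SE), with a limma adjusted p of 0.292. Pomgnt2, which adds the sugar that commits the mannose to core M3, had a difference of -0.09 ± 0.09 (SE, adjusted p 0.664), and B3galnt2, the next enzyme, of 0.01 ± 0.08 (SE, adjusted p 0.966).

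Enzymes of other O-mannose glycans likewise held no call among 7 tested. Tmtc4, of the family that places O-mannose on cadherins, had a difference of 0.20 ± 0.06 (SE, adjusted p 0.179). Mgat5b, a branching enzyme of brain O-mannose glycans, had one of -0.29 ± 0.10 (SE, adjusted p 0.225). Chst10, a sulfotransferase that can cap matriglycan and stop its extension, had a difference of -0.03 ± 0.07 (SE, adjusted p 0.895).

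The supply of sugar donors showed no call among 13 genes, with differences from -0.22 to 0.05 and a median of -0.02. Uxs1 and Ugdh make UDP-xylose and UDP-glucuronic acid, which Large2 consumes. Their differences were 0.05 ± 0.07 (SE, adjusted p 0.782) and 0.04 ± 0.07 (SE, adjusted p 0.838). Gmppb, which makes GDP-mannose, had the lowest value of the list at -0.22 ± 0.09 (SE, adjusted p 0.299), and Dpm2, a subunit of the dolichol-phosphate mannose synthase, was at -0.14 ± 0.06 (SE, adjusted p 0.30).

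Among 15 tested ligands of dystroglycan, 1 rose, against 1.36% of all genes tested, and 1 fell, against 0.359%. The other 13 did not pass, and the median difference was 0.12, beside -0.03 over all genes tested. Slit2, a secreted axon guidance protein that binds the glycan, had 8.65, 8.83 and 8.84 in control and 9.86, 9.71 and 9.82 in DKO arrays. Its groups lay far apart, and it rose by 1.02 ± 0.08 (SE), or 2.03-fold, with a limma adjusted p of 4.43e-04. Slit1, its family member, had 8.49, 8.40 and 8.71 in control and 8.10, 8.10 and 8.05 in DKO arrays, and it fell by 0.46 ± 0.08 (SE) on the log2 scale with an adjusted p of 0.0375. Slit3 had a difference of 0.13 ± 0.07 (SE, adjusted p 0.436). Slit2 stayed past the threshold whichever array was left out, whereas Slit1 did so only without control 2. Leaving out control 1 moved the adjusted p of Slit1 to 0.118, control 3 to 0.0801, DKO 1 to 0.124, DKO 2 to 0.0749 and DKO 3 to 0.124. It was also 0.0507 with no filter on dim genes and 0.0536 with the array medians centred.

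The 7 laminin chains, the main matrix partners of dystroglycan, had differences from -0.22 to 0.34 and none passed (lowest adjusted p 0.137). Lamc1, the gamma chain shared by most laminins, and Hspg2, which encodes the proteoglycan perlecan, were picked after their values were seen. Lamc1 was at 8.09 ± 0.08 in control and 8.43 ± 0.17 in DKO, and Hspg2 at 8.19 ± 0.06 and 8.58 ± 0.23 (SD, n = 3), with adjusted p of 0.137 and 0.138. In each of the 7 laminin chains DKO 2 was the lowest DKO array, and Hspg2 stood at 8.32 in DKO 2 against 8.73 in DKO 1 and 8.70 in DKO 3. Without DKO 2, Hspg2 had an adjusted p of 0.0119 and Lamc1 of 0.0516. Leaving out any other array gave adjusted p of 0.269 to 0.324 for Hspg2 and 0.236 to 0.302 for Lamc1. DKO 2 was also low for the 8 meningeal markers, with a mean level of 6.53 against 7.15 and 7.47 in the other DKO arrays and 7.01 to 7.28 in control. For the 6 endothelial markers it was at 7.01, against 7.52 and 7.60 in the other DKO arrays and 7.62 to 7.78 in control. DKO 3, at 7.602, lay only just below the lowest control array, at 7.615. All 6 endothelial markers had a lower mean in DKO, as did 10064 of the 16724 genes tested, and none passed the test. The part of meningeal and vascular cells in these ligand values was not tested.

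Of 13 tested genes of the dystrophin-associated complex, 2 rose, against 1.36% of all genes tested, and 0 fell, against 0.359%. The other 11 did not pass, and the median difference was 0.09, beside -0.03 over all genes tested. Dtna encodes alpha-dystrobrevin, a cytoplasmic partner of dystrophin and utrophin. It had 6.84, 6.86 and 6.61 in control and 7.31, 7.65 and 7.33 in DKO arrays, and rose by 0.66 ± 0.11 (SE), or 1.58-fold, with an adjusted p of 0.0242. Sgce encodes epsilon-sarcoglycan, the sarcoglycan best known in brain, and had 7.80, 7.80 and 7.95 in control and 8.61, 8.37 and 8.26 in DKO arrays. It rose by 0.57 ± 0.10 (SE), or 1.48-fold, with an adjusted p of 0.0260. Utrn and Dmd, which encode utrophin and dystrophin, had differences of 0.29 ± 0.09 (SE, adjusted p 0.186) and 0.23 ± 0.10 (SE, adjusted p 0.298). For Dtna the adjusted p became 0.0675 when control 1 was dropped, 0.0538 for control 2, 0.0871 for control 3, 0.0574 for DKO 1 and 0.0631 for DKO 3. For Sgce it became 0.116 when control 1 was dropped, 0.0838 for control 2, 0.0647 for control 3 and 0.0588 for DKO 1.

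**Figure D3:**
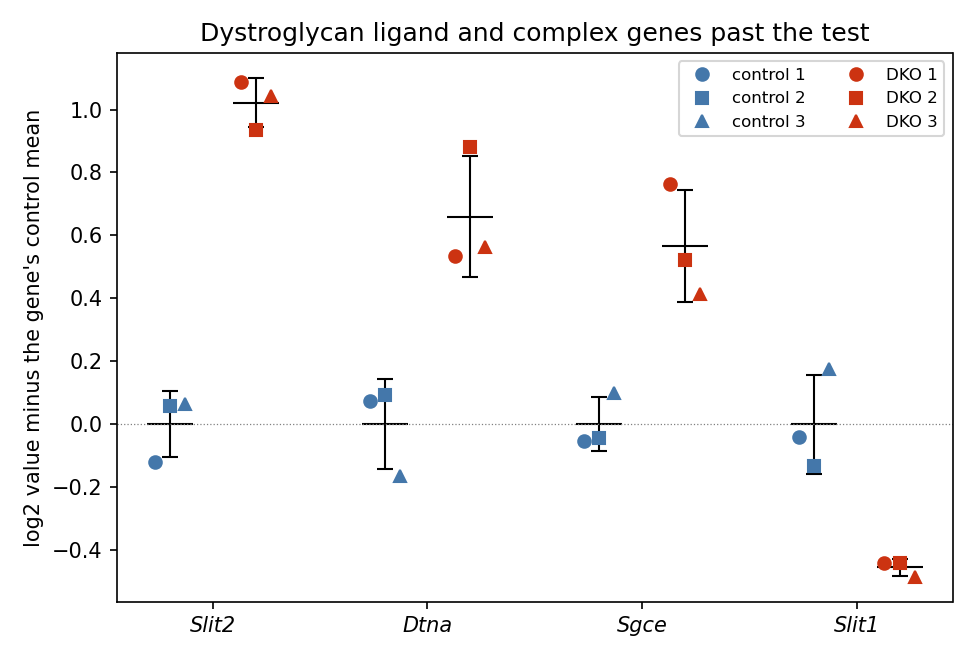
Log2 value of each array minus the control mean of the same gene (y axis) for the pathway genes that passed the test, Slit2, Dtna, Sgce and Slit1 (x axis). Blue points are control arrays and red points DKO arrays, with bars at the mean ± SD (n = 3). The 4 genes were picked by their difference on these same arrays, so the lack of overlap between their groups adds no support.

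None of 8 genes of the basement membrane and its other receptors passed. Adgrg1, a receptor of radial glia that binds collagen of the pial membrane, had a difference of -0.21 ± 0.06 (SE, adjusted p 0.152). With a trended variance its adjusted p was 0.0318, and in the other 13 of 14 alternatives it did not pass. Itgb1, the beta chain of the laminin-binding integrins, had one of 0.21 ± 0.09 (SE, adjusted p 0.330).

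The level of Large2 was compared with that of its neighbours on chromosome 2, in the gene order of the RefSeq table of assembly GRCm38.p6. Of the 5 genes with a row on each side, 9 of 10 were tested, 1 rose, against 1.36% of all genes tested, and 0 fell, against 0.359%. Their median difference was -0.06, beside -0.03 over all genes tested. The nearest on either side among those tested, Phf21a and Pex16, had differences of -0.13 ± 0.07 (SE, adjusted p 0.459) and -0.06 ± 0.08 (SE, adjusted p 0.781). Mapk8ip1, a scaffold of JNK signalling and the third gene after Large2 with a row, rose by 0.35 ± 0.06 (SE), or 1.27-fold, from 9.07 ± 0.03 to 9.42 ± 0.04 (SD, n = 3), with a limma adjusted p of 0.0266. Dropping control 1 moved this to 0.139, control 2 to 0.0765, control 3 to 0.0850, DKO 1 to 0.101 and DKO 3 to 0.0976.

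**Figure D4:**
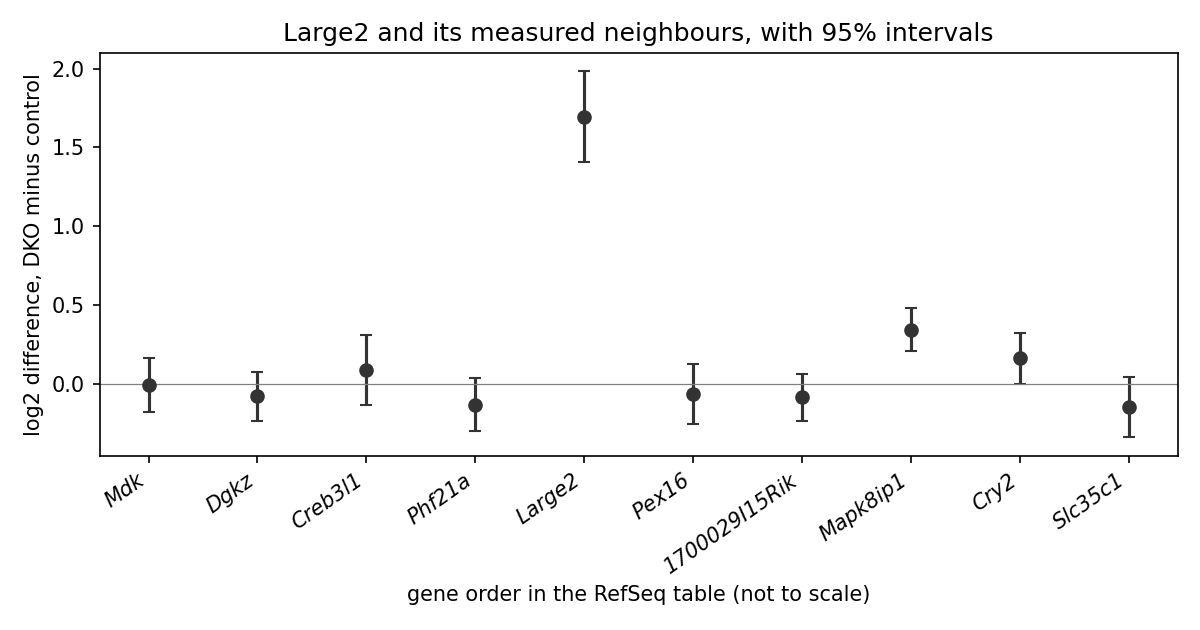
Log2 difference between DKO and control means (y axis, DKO minus control) with 95% limma intervals for Large2 and the 9 tested neighbours, placed in chromosomal order and not to scale (x axis). Large2 stands at 1.70 and the neighbours between -0.15 and 0.35.

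The 5 profiles most like that of Large2 were those of Ccn2, Cldn12, Col12a1, Casq1 and Gadd45b. Likeness was the root mean square distance between log2 profiles over the 6 arrays, each centred on its own mean, and the 5 distances ran from 0.10 to 0.15. Ccn2, which encodes a matricellular protein and is a canonical target of YAP and TAZ, was at 7.07 ± 0.11 in control and 8.78 ± 0.23 in DKO (SD, n = 3). Its values in DKO 1, 2 and 3 were 8.82, 8.54 and 8.99, with DKO 2 lowest as for Large2. Ccn2 was highest in DKO 3, whereas Large2 was highest in DKO 1. Casq1, which encodes a calcium-binding protein of the sarcoplasmic reticulum, went from 6.69 ± 0.08 to 8.15 ± 0.20 (SD, n = 3). The profiles share the same 6 embryos, and any gene with a difference near 1.7 between the groups tends to come out close by this measure. The 5 genes were picked by this likeness, so a shared order of the arrays adds no support.

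Markers of the hem and choroid plexus, the dorsal midline next to the cortex, also differed between the groups. Of 8 tested markers 2 rose, against 1.36% of all genes tested, and 0 fell. All 8 had a higher mean in DKO, as did 6660 of the 16724 genes tested. The mean level over the 9 markers with a row was 5.70 to 6.04 in control and 6.19 to 6.69 in DKO arrays, so the groups did not overlap, and Clic6 lay below the dim limit. Ttr, the thyroid hormone carrier of choroid plexus, stood at 8.84, 10.25 and 8.33 in DKO 1, 2 and 3 and at 6.74, 7.21 and 6.74 in the controls. Its highest DKO array was DKO 2, the lowest DKO array for Large2, while control 2 was the highest control for both genes. Otx2, Wnt2b and Wnt3a were likewise highest in DKO 2 among the DKO arrays. Lmx1a, Rspo2, Wnt8b, Folr1 and Clic6 were instead highest in DKO 1, as Large2 was. Lmx1a, a transcription factor of the same tissue, stood at 5.82, 5.78 and 5.74 in DKO and at 5.28, 5.40 and 5.26 in control arrays. The limma adjusted p was 0.0371 for Ttr and 0.00982 for Lmx1a. Both calls were lost when control 1 (0.132 and 0.0583), control 3 (0.141 and 0.0540) or DKO 1 (0.106 and 0.0508) was dropped, and that of Ttr also for control 2 (0.0749). The part of midline tissue in the Large2 value was not tested.

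**Figure D5:**
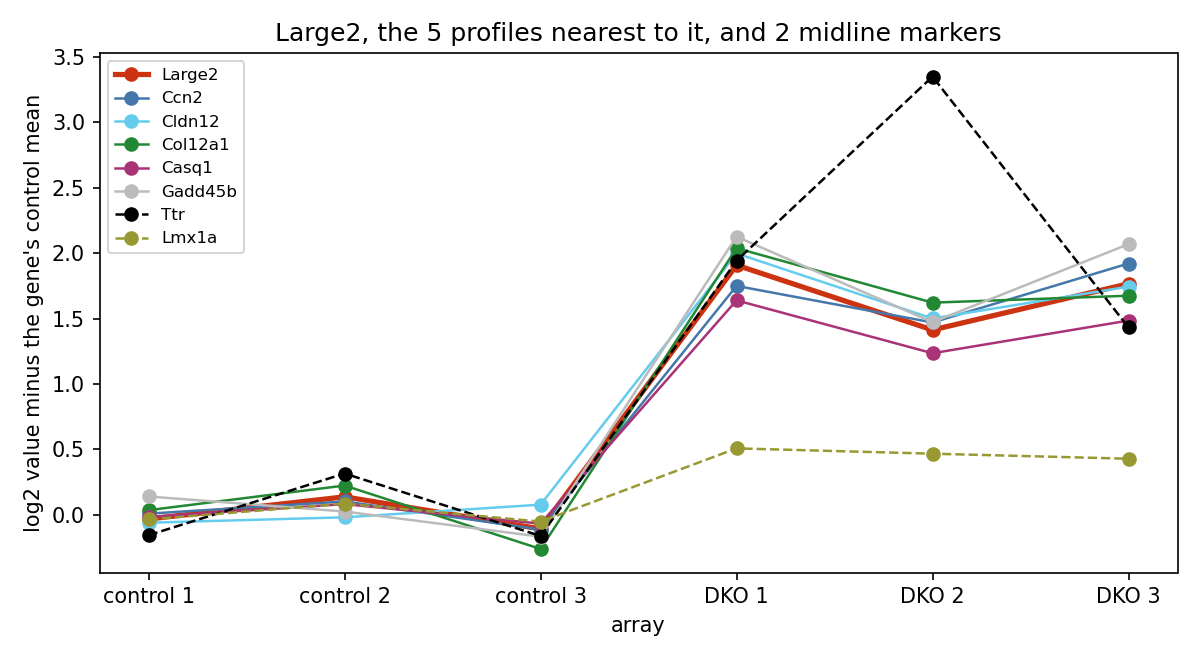
Log2 value minus the control mean of the same gene (y axis) on each of the 6 arrays (x axis) for Large2, the 5 genes with the nearest profiles (solid lines) and the midline markers Ttr and Lmx1a (dashed lines). Among the DKO arrays Large2 is lowest in DKO 2 (7.66), where Ttr is highest (10.25). Lmx1a is highest in DKO 1 (5.82), as Large2 is (8.15).

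Neuron markers were lower on average in the same DKO arrays, though not past the test. The mean over 6 neuron markers was 10.05 to 10.22 in control and 9.82 to 9.97 in DKO arrays, so the groups did not overlap. All 6 had a lower mean in DKO, as did 10064 of the 16724 genes tested, and none passed the test. The part of a different share of neurons in the pathway values was not tested.

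Markers of surface epithelium and skeletal muscle, which a dissection could carry over, were also read. The mean over 6 surface epithelium markers was 5.57 to 5.78 in control and 5.67 to 5.68 in DKO arrays, with Epcam below the dim limit. The mean over 5 skeletal muscle markers was 6.03 to 6.16 in control and 5.93 to 6.11 in DKO arrays. None of the 5 tested epithelial and 5 tested muscle markers passed the test.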

How the data were processed

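Total RNA was labelled and hybridised to 1 array for each of 6 samples. The authors deposited log2 values that RMA produced, per the submitters' processing notes. Neither its version nor the genome build of the probes is known here. RMA equalises the array distributions, so it hides a shift shared by every transcript. Gene symbols came from the platform's annotation. Of 41345 rows, 23521 had 1 symbol, 1814 several and 16010 none. For each gene the row with the highest mean over the 6 arrays was used, and genes whose mean fell under 5.02, the 25th percentile over all rows with 1 symbol, were left out, which kept 16724 genes. DKO was compared with control by limma 3.58.1 in R 4.3.3 (lmFit, eBayes, two-sided, 4 residual and 4.44 prior degrees of freedom), with no covariate. Calls are Benjamini-Hochberg adjusted p under 0.05 over all genes tested. Large2 carries no p because its rise chose it.

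The genes and lists were chosen with earlier results of these data known. Named are all 7 genes, Lats1 and Lats2, called pathway genes and neighbours, the 2 pathway genes with the smallest p in each list, Ttr, Lmx1a and the 5 nearest profiles; others, such as Hspg2, Lamc1, B3galnt2, Chst10, Uxs1, Ugdh, Slit3, Utrn, Dmd, Phf21a and Pex16, were added after their values were seen. Also listed were microglia (0 of 3 passed) and meninges (0 of 8). The erythroid markers (4 listed) had no row. The code was tested on simulated data. Some genes of the pathway are not reported here.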

Additional observations from a re-analysis of the deposited data

How the results depend on the processing

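The log2 difference of Large2 ran from 1.59 to 1.84 over 14 alternatives, each within the SD of the DKO arrays (0.25) of the reported value, and none of the other 6 genes was called in any of them. Among the pathway lists, 4 genes passed, and leaving out 1 array gave 1 to 4. In the same fits 1 to 4 rose, 0 to 1 fell, and 0 to 1 of the genes next to Large2 passed. Of the pathway genes that fell, 0 remained with no filter and with the array medians centred, and 2 passed with a trended variance. Replicate numbers are shared by control and DKO but are not tied to litters by the labels. The deviations of same-numbered arrays correlated at -0.10, 0.21 and 0.15, and 3 of 6 arrays correlated best with their own number. With the replicate block 2 pathway genes passed, 0 of them lower in DKO, and 0 neighbours. The adjusted p with the block was 0.0904 for Slit1, 0.0796 for Sgce and 0.0877 for Mapk8ip1. The causes were not tested; fits without an array hold fewer samples. No detection calls were used here, so a dim signal cannot be told from background.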
